A study of Mus musculus with 2 samples.

Results

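The enzymes of glycolysis, with the transporters that bring glucose into the muscle fibre and carry lactate across its membrane, were followed through 33 named genes. The members were chosen as a pathway: every step from glucose uptake to lactate export, with its alternative isozymes, the phosphofructokinase-2 enzymes, bisphosphoglycerate mutase and the glycerol 3-phosphate dehydrogenases. The rule uses no measured value, though the members were chosen with earlier results of these data known. All 33 have an identifier among the 55536 annotated genes of the deposited tables.

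The measurements are total RNA sequencing of gastrocnemius, a calf muscle, taken at postnatal day 14 from female B6CASTF1/J mice, the F1 hybrid of C57BL/6J and CAST/EiJ. There was 1 group of 2 libraries, called replicates 1 and 2, each made from 300 ng of RNA with ERCC spike-in RNAs. Both library descriptions name 3 females, while the tissue text of replicate 2 speaks of a single female, so whether each library is a pool is uncertain. The labels call them biological replicates. No treatment, genotype or age was compared, and no p-value is given. The annotated genes held 35592003 and 42105856 estimated counts in replicates 1 and 2. All 9 muscle fibre markers were detected, at a summed 90915 and 93870 TPM, led by Acta1 and Ckm, as the tissue label would have it. TPM, transcripts per 1000000, is a read count divided by transcript length and scaled to the library, and levels of different genes are compared here only on that scale.

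Glycolysis splits glucose into pyruvate and yields ATP without oxygen. Most steps can be catalysed by several isozymes encoded by separate genes, and skeletal muscle is known for its own set of them, among them muscle phosphofructokinase, beta enolase and muscle phosphoglycerate mutase. In fast fibres much of the pyruvate is reduced to lactate and leaves the cell through monocarboxylate transporters, while insulin and contraction move the glucose transporter GLUT4 to the surface.

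An isozyme can be set by choosing an exon within a gene or by using a different gene, and both routes can be read in these sequences. Pkm encodes the pyruvate kinases M1 and M2, which differ by mutually exclusive exons of 167 bases each. The M1 exon (mm10, chr9:59675029-59675195, plus strand) and the M2 exon (mm10, chr9:59675568-59675734, plus strand) are coding exons taken from the GENCODE M21 transcripts Pkm-202 and Pkm-201. They are shown because the reads that tell M1 from M2 inside the shared body of the transcript come from here. Capitals mark the 64 bases that differ between the exons, which are 61.7% identical.
M1 exon: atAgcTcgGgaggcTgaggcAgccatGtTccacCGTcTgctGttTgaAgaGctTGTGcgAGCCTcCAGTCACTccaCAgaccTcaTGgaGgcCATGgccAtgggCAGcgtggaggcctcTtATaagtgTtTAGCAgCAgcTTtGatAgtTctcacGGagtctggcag
M2 exon: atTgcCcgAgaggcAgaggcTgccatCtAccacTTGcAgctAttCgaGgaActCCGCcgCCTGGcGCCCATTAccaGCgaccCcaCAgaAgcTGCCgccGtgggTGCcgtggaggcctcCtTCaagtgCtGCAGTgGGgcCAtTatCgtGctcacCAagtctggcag

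The phosphoglycerate mutases use separate genes, Pgam2 on chromosome 11 for the muscle form and Pgam1 on chromosome 19 for the general form. The 250 bases before their RefSeq starts (GRCm38.p6) are shown because the genes encode enzymes of the same reaction and stood over 100-fold apart in this muscle. The Pgam2 stretch is chr11:5803797-5804046 on the minus strand and the Pgam1 stretch chr19:41911621-41911870 on the plus strand. Capitals mark E-boxes, searched as CANNTG, and the MEF2 motif, both of which are bound by factors of the muscle programme. TATAAA was searched too and was in neither stretch.
Pgam2: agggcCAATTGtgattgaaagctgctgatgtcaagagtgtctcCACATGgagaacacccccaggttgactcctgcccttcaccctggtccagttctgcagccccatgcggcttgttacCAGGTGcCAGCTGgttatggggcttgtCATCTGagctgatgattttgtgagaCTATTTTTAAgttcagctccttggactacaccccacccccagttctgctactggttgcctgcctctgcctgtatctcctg
Pgam1: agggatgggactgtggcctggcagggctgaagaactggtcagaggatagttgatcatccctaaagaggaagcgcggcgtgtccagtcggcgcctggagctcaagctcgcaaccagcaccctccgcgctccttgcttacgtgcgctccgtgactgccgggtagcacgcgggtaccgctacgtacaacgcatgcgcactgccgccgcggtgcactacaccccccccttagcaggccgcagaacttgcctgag
Over both strands the Pgam2 stretch held 5 E-boxes and 1 MEF2 match, with no overlap between them. The Pgam1 stretch held neither motif, and its GC content was 64%, against 53.2% for Pgam2. Of 27025 promoters of the same length, 66.0% held CANNTG, 3.01% the MEF2 motif and 12.97% TATAAA. Of the 30 members with a promoter entry, 19 held CANNTG and 1, Pgam2, held the MEF2 motif in their first listed promoter. Over all 49 listed promoters of the members, 2 held the MEF2 motif, that of Pgam2 and an alternative one of Pfkfb1. A match is only a string of letters in this window, and binding was not measured.

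Together the members stood at 22609 and 21914 TPM in replicates 1 and 2, or 2.29% and 2.22% of the TPM of all annotated genes. Of the 33, 29 reached 1 TPM in both libraries, 13 reached 100 TPM and 7 exceeded 1000 TPM. The 7 were Aldoa, Gapdh, Eno3, Pgam2, Tpi1, Ldha and Pkm, all of them enzymes of the steps from the splitting of the sugar to lactate. The 4 members below 1 TPM in at least 1 library were Hk3, Aldoc, Slc2a3 and Pklr. The 9 highest members held 93.5% of the summed TPM in each library. Neighbours in the order of mean levels were compared by their deposited credibility intervals. The higher gene's interval lay above the next one's in both libraries for all but 15 of the 32 neighbouring pairs. Intervals overlapped in at least 1 library for pairs such as Slc16a3 below Eno1, Gpd2 below Slc2a4 and Ldhb below Gpd2. For Pgam1 and Pfkfb3, and for Pfkfb1 and Pfkl, the intervals were apart in both libraries but in opposite orders.

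**Figure D1:**
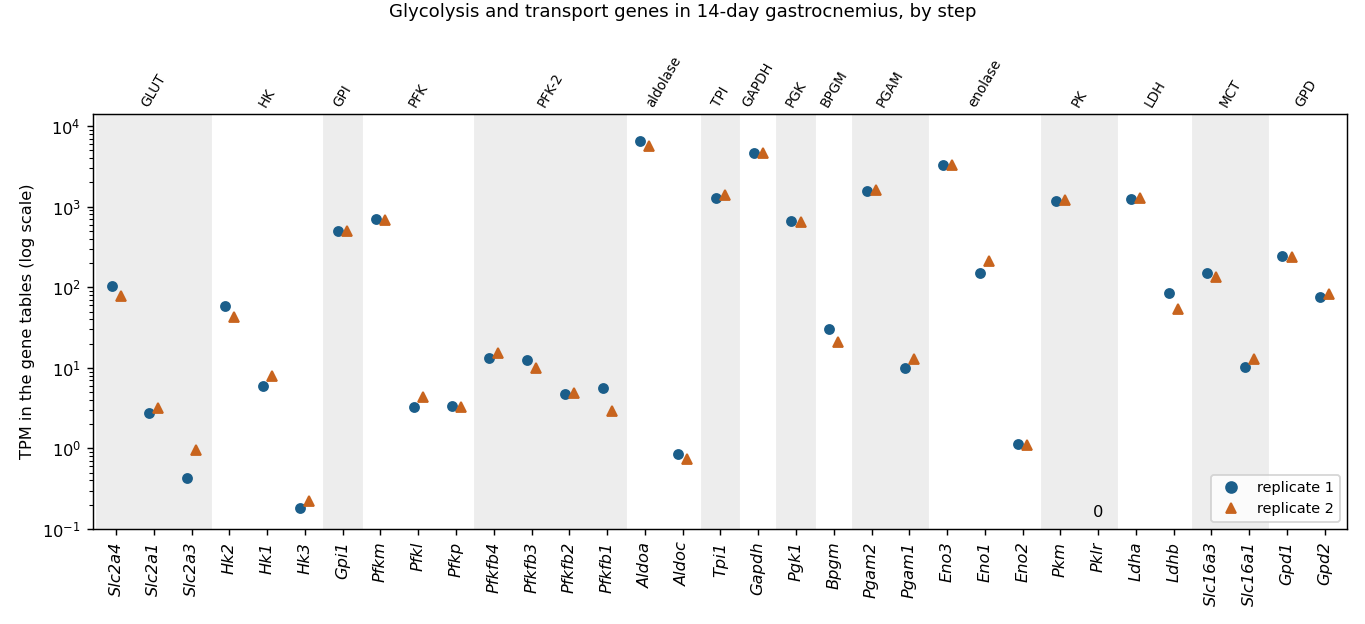
Level of each member in TPM on a log axis, by step, with a point for each of the 2 libraries. Aldoa, Gapdh and Eno3 stand highest, at 6164, 4632 and 3284 TPM on average, and Slc2a3, Hk3 and Pklr lowest.

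Glucose entry was led by Slc2a4, which encodes GLUT4, the insulin-regulated transporter of muscle and fat. It stood at 103 and 76.8 TPM in replicates 1 and 2. Adipocyte markers, 3 of 4 above 1 TPM in both libraries, summed to 10.2 and 12.4 TPM, led by Cfd, and their part in Slc2a4 was not tested. Slc2a1, which encodes the widely expressed transporter GLUT1, stood at 2.76 and 3.21 TPM, and Slc2a3, for the high-affinity GLUT3 of neurons and some blood cells, at 0.43 and 0.95 TPM. Slc2a4 held 95.9% ± 1.51 of the summed TPM of the 3 genes (SD, n = 2), and its interval lay above that of Slc2a1 in both libraries. With the other listed GLUT genes counted in, chiefly Slc2a12 at 6.62 and 6.69 TPM and Slc2a8 at 4.33 and 4.13 TPM, the share was 84.3%.

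Hexokinase, which traps glucose as glucose 6-phosphate, was led by Hk2, the insulin-responsive isozyme of muscle and fat. Hk2 stood at 58.4 and 43.0 TPM in replicates 1 and 2, against 5.88 and 7.95 TPM for Hk1, the isozyme common to most tissues. Hk3, best known from white blood cells, stood at 0.18 and 0.22 TPM on 16 and 14 counts. Hk2 held 87.3% ± 4.65 of the step (SD, n = 2), the widest spread of any leading share other than that of Pfkfb4. Macrophage markers, all 6 above 1 TPM, summed to 45.0 and 53.7 TPM and granulocyte markers, 0 of 4 above 1 TPM and Ly6g at 0 counts, to 2.06 and 0.53 TPM. Their part in Hk3 was not tested. In whole muscle, fewer cells of a type and less RNA per cell cannot be told apart. The summed hexokinase level, 57.8 ± 9.43 TPM, was the lowest of the 11 enzyme steps from glucose to lactate in both libraries and in both deposited quantifications.

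Phosphoglucose isomerase has a single gene here, Gpi1, at 502 and 492 TPM in replicates 1 and 2. Pfkm, the muscle subunit of phosphofructokinase, the committed step of the pathway, stood at 700.3 and 682 TPM. Pfkl, the liver subunit, stood at 3.23 and 4.40 TPM and Pfkp, the platelet subunit, at 3.37 and 3.25 TPM, with intervals that overlapped in both libraries. Pfkm was thus 99.0% ± 0.124 of the step, and the minor subunits could not be ranked.

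Aldolase, which splits the 6-carbon sugar, was led by Aldoa, the highest of the members in the gene tables, at 6598 and 5730 TPM. Aldoc, the form of brain, stood at 0.85 and 0.73 TPM on 40 and 33 counts. Neuronal markers were at or near background, with 0 of 4 above 1 TPM and summed levels of 0.1 and 0.3 TPM, and Schwann cell markers, 6 of 6 detected, summed to 259 and 679 TPM. Their part in Aldoc was not tested. A second identifier that also carries the Aldoa symbol held 6 and 8 counts and was left out.

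The phosphofructokinase-2 enzymes make and remove fructose 2,6-bisphosphate, the strongest activator of phosphofructokinase, and theirs was the only step with no clear leading gene. Pfkfb4 stood at 13.4 and 15.4 TPM in replicates 1 and 2, Pfkfb3 at 12.4 and 10.01 TPM, Pfkfb2 at 4.79 and 4.87 TPM and Pfkfb1 at 5.62 and 2.90 TPM. Pfkfb4 was highest in both libraries, but its interval overlapped that of Pfkfb3 in replicate 1 and lay above it in replicate 2. Its share was 41.7% ± 6.69 (SD, n = 2). Pfkfb1, whose gene also encodes the liver enzyme, lay above Pfkfb2 in replicate 1 with overlapping intervals and below it in replicate 2 with separate ones. Among the 17 comparisons of a leading gene with another of its step, Pfkfb4 over Pfkfb3 was the only one whose intervals were not apart in both libraries.

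**Figure D2:**
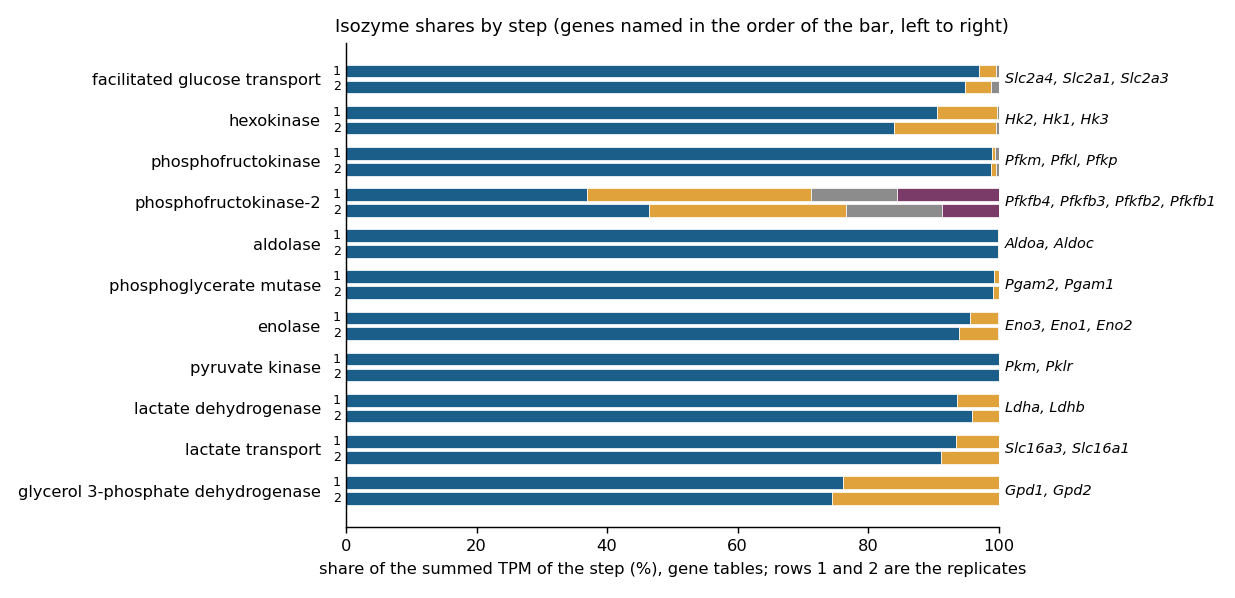
Share of each step's summed TPM, in percent, held by each isozyme gene in each of the 2 libraries, for the 11 steps with more than 1 gene. The leading gene of hexokinase holds 84.0% or more in both libraries and that of 8 further steps more than it, while glycerol 3-phosphate dehydrogenase is shared between Gpd1 and Gpd2 and phosphofructokinase-2 among 4 genes.

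From the triose phosphates on, each step stood between 652 and 4632 TPM on average. Tpi1, which interconverts the triose phosphates, stood at 1285 and 1398 TPM and Pgk1, which makes the first ATP of the pathway, at 657 and 646 TPM. Gapdh, the dehydrogenase that reduces NAD in the pathway, stood at 4644 and 4621 TPM. In the second deposited quantification, made directly from the reads, Gapdh stood at 13236 and 13488 TPM, above Aldoa at 8699 and 7497 TPM. The order of Gapdh and Aldoa thus depends on the quantification.

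Pgam2, whose promoter stretch is shown above, stood at 1546 and 1621 TPM in replicates 1 and 2, against 9.99 and 13 TPM for Pgam1. It held 99.3% ± 0.109 of phosphoglycerate mutase (SD, n = 2). Enolase was led by Eno3, the beta enolase of muscle, at 3272 and 3297 TPM. Eno1, the alpha enolase of most tissues, stood at 148 and 210 TPM, and Eno2, the gamma enolase of neurons, at 1.15 and 1.1 TPM on 39 and 61 counts. Eno1 was the highest of the minor isozymes of the pathway and lay above the leading gene of glucose transport in both libraries. Pgam1 and Eno1 share reads with other genes. The posterior SD of the count was 1.59% and 1.19% of the count for Pgam1 in replicates 1 and 2. For Eno1 it was 1.11% and 0.836%. Of the other members Pfkfb2 alone also passed 1% in a library. These 3 of the 33 members stand beside 10.3% of all genes at 1 TPM or more in both libraries, so such sharing is not particular to the members. Below that limit, Pgk1 stood at 0.551% and 0.453% and Gapdh at 0.205% in both libraries. Eno1b, a near copy of Eno1, held 73.0 and 99.3 TPM, and with it Eno3 held 92.5% of enolase in place of 94.8% ± 1.16. How the reads divide between Eno1 and Eno1b is uncertain.

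Pyruvate kinase came almost wholly from Pkm, at 1193 and 1223 TPM in replicates 1 and 2. Pklr, the gene of the liver and red cell enzymes, had 0 counts in both gene tables, which allows up to 3 counts in each, and 2 and 4 counts in the direct quantification. Within Pkm the M1 transcript Pkm-202 stood at 653 and 646 TPM, against 523 and 551 TPM for the M2 transcript Pkm-201. M1 is known as the form of adult muscle and M2 as that of embryonic and proliferating tissue. M1 held 55.5% and 54.0% of M1 plus M2, with deposited intervals apart in both libraries. In the quantification made directly from the reads the M1 transcript stood at 763 and 742 TPM, against 767 and 794 TPM for the M2 transcript. The M1 share was 54.8% ± 1.11 in the first quantification and 49.1% ± 1.11 in the second (SD, n = 2), so the 2 differed by more than the spread between libraries and lay on different sides of equal parts. The annotated M2 transcript starts 205 bases before the M1 one and ends 186 bases after it, so reads from those ends can be assigned only to M2 among this pair. The exons printed above are the only other place where this pair differs, and no count of reads over them alone was used here.

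Lactate dehydrogenase was led by Ldha, the form that favours the making of lactate, at 1247 and 1268 TPM in replicates 1 and 2. Ldhb, the form of heart and oxidative fibres, stood at 84.9 and 54.4 TPM. Ldha held 94.8% ± 1.60 of the step in the gene tables and 91.8% in the direct quantification (SD, n = 2). Slc16a3, which encodes MCT4, the lactate exporter of glycolytic fibres, stood at 149 and 133 TPM, against 10.3 and 12.9 TPM for Slc16a1, which encodes MCT1, a transporter of oxidative fibres that takes lactate up. Slc16a3 held 92.3% ± 1.67 of the pair. Its messenger is the shorter, and from counts not divided by length the share was 84.6%. Bsg, which encodes basigin, the partner that carries MCT1 and MCT4 to the membrane, stood at 253 and 242 TPM, above both transporters together at 159 and 145 TPM. Emb, which encodes the related partner embigin, stood at 5.40 and 6.49 TPM.

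The glycerol 3-phosphate dehydrogenases pass electrons from cytosolic NADH to the mitochondria. Gpd1, the cytosolic enzyme, stood at 241 and 237 TPM in replicates 1 and 2, against 75.3 and 81.5 TPM for Gpd2, the mitochondrial one. Gpd1 held 75.3% ± 1.27 of the pair, and 85.7% when only transcripts annotated as protein-coding were summed, since 42.7% and 44.0% of the Gpd2 level was assigned to Gpd2-205, a processed transcript of 620 bases. Bpgm, which makes the 2,3-bisphosphoglycerate that loosens oxygen from haemoglobin in red cells, stood at 30.2 and 20.8 TPM. The erythroid markers, 5 of 7 above 1 TPM in both libraries, summed to 2949 and 1495 TPM, led by Hbb-bs and Hba-a1. Bpgm and the erythroid markers were both higher in replicate 1, and the markers' part in Bpgm was not tested.

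Of 33 further genes of the pathway and its side branches, 16 reached 1 TPM in both libraries. Besides those already given, Fbp2, the muscle fructose bisphosphatase that runs the phosphofructokinase step backwards, stood at 37.6 and 30.9 TPM in replicates 1 and 2. Pgp, a phosphatase that clears side products of glycolysis, stood at 23.9 and 21.8 TPM, and G6pc3, the ubiquitous glucose 6-phosphatase, at 16.8 and 17.6 TPM. Gpd1l stood at 9.20 and 10.2 TPM, Tigar, which lowers fructose 2,6-bisphosphate, at 9.54 and 9.21 TPM, Minpp1 at 7.99 and 10.3 TPM and Ldhd, the D-lactate dehydrogenase, at 9.20 and 6.86 TPM. Pck2 stood at 5.49 and 5.63 TPM, Adpgk, an ADP-dependent glucokinase, at 4.96 and 5.57 TPM, Pck1 at 2.75 and 1.58 TPM and Slc16a7, which encodes MCT2, at 1.74 and 1.18 TPM. Gapdhs, Pgk2 and Ldhc, forms known from testis, had 0 counts in both libraries. The sodium-coupled glucose transporters Slc5a1 and Slc5a2 also had 0 counts, and each 0 allows up to 3 counts.

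The libraries were compared gene by gene on estimated counts scaled with TMM factors, with an exact binomial (Clopper-Pearson) interval that covers counting error only. With 1 library on each side this is a description of those libraries. At least 1.5-fold apart were 5 of the 32 members tested, or 15.6%, against 13.6% of the 15734 genes tested. A share this near the background is no result about the members. With a summed count of at least 200 it was 4 of 28 members, or 14.3%, against 6.43% of 11117 genes, and at 100 CPM or more 2 of 16 members against 7.43% of 955 genes, so how near the members lie to all genes depends on the count limit. All 5 were lower in replicate 2, a side on which 5.64% of all genes lay, and 0 members were past 1.5-fold on the higher side, against 7.98% of all genes. The members' median log2 ratio, replicate 2 over replicate 1, was -0.15, against 0.01 for all genes tested, while the median size of the ratio was 0.18 for the members and 0.19 for all. With scaling by total counts the medians were -0.02 for the members and 0.14 for all genes, and by ERCC totals 0.07 and 0.23, so the sign of the members' median depends on the scaling. Scaling shifts every gene alike and leaves the distance between the medians as it is. Of all genes past 1.5-fold, 58.6% were higher in replicate 2 with TMM factors, 74.0% with total counts and 82.8% with ERCC totals. With total counts 2 members, Pfkfb1 and Ldhb, or 6.25%, were past 1.5-fold, against 15.5% of all genes. With ERCC totals it was 1 member, Pfkfb1, or 3.12%, against 18.3% of all genes. Each was lower in replicate 2.

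Pfkfb1 differed the most with TMM factors, on 147 counts in replicate 2 and 255 in replicate 1. Its log2 ratio was -1.16 (95% interval -1.47 to -0.87). Pfkfb1 was the 1 member past 2-fold, where 4.68% of all genes lay, 2.62% higher and 2.06% lower in replicate 2. Ldhb followed, with 1833 counts in replicate 2 and 2391 in replicate 1 and a log2 ratio of -0.75 (95% interval -0.84 to -0.67). Ldhb is known to be high in oxidative fibres. The 6 slow-fibre markers summed to 2085 TPM in replicate 2 and 1203 TPM in replicate 1, led by Myl2 and Myh7. Among the muscle fibre markers, Myh2 stood at 886 TPM and Myh1 at 1767 TPM in replicate 2, against 1070 and 2345 TPM in replicate 1. Myh4 stood at 12204 TPM in replicate 2 and 11567 TPM in replicate 1. These marker levels are in TPM, on which the log2 ratio of Ldhb was -0.64. Ratios in TPM and with TMM factors are offset: that of Eno3 was 0.01 in TPM and -0.16 with TMM factors. A small difference in TPM, such as that of Myh4, thus need not keep its direction with TMM factors. The part of fibre types in the Ldhb difference was not tested. Hk2, with a log2 ratio of -0.59, and Slc2a4, also at -0.59, are genes of insulin-stimulated glucose uptake, and both lay just past the 1.5-fold limit. Their intervals, -0.64 to -0.54 for each, reached to both sides of that limit. Aldoc, at -0.64 on 33 and 40 counts in replicates 2 and 1, had an interval of -1.36 to 0.05. Just inside the limit were Hk3 at -0.54 and Bpgm at -0.51. Hk3 rests on 14 and 16 counts in replicates 2 and 1, with an interval of -1.71 to 0.57. The interval of Bpgm was -0.63 to -0.40. In TPM the log2 ratio was -0.44 for Hk2, -0.42 for Slc2a4 and -0.22 for Aldoc, all within 1.5-fold. That of Slc2a3 was 1.14 in TPM, past 1.5-fold on the higher side, on 40 and 55 counts in replicates 1 and 2. Pfkfb1, at -0.95, and Ldhb, at -0.64, were past the limit in TPM too.

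With TMM factors Eno1, Eno2, Pgam1, Hk1, Slc16a1, Slc2a1, Slc2a3, Pfkfb4 and Pfkl had ratios above 0, all within 1.5-fold, and of these Pfkfb4 alone leads its step. Eno1 had a log2 ratio of 0.29 (95% interval 0.24 to 0.34), Pgam1 of 0.20, Hk1 of 0.17, Slc16a1 of 0.15 and Slc2a1 of 0.15, the last with an interval of -0.11 to 0.41. Sums of markers of other cells, given in TPM and not scaled with TMM factors, differed between the libraries in both directions. Schwann cell markers summed to 679 TPM in replicate 2 and 259 TPM in replicate 1. Fibro-adipogenic markers, 5 of 5 detected, summed to 3383 TPM in replicate 2 and 2117 TPM in replicate 1. That difference lay mainly in Col1a1, at 1958 and 1128 TPM in replicates 2 and 1, and Col3a1, at 1135 and 759 TPM. Pdgfra stood at 20.2 TPM in replicate 2 and 18.3 TPM in replicate 1. Mural and smooth muscle markers, 4 of 4, summed to 440 TPM in replicate 2 and 255 TPM in replicate 1. The mural difference was nearly all in Acta2, at 306 TPM in replicate 2 and 119 TPM in replicate 1, while Rgs5 stood at 104 TPM in replicate 2 and 107 TPM in replicate 1. Endothelial markers, 6 of 6, summed to 187 TPM in replicate 2 and 194 TPM in replicate 1, and the erythroid sum was 1495 TPM in replicate 2 and 2949 TPM in replicate 1. The part of these cells in the general isozymes was not tested. Of the leading enzymes of the lower pathway, the log2 ratio with TMM factors was -0.09 for Pgam2, -0.07 for Tpi1 and -0.13 for Pkm. It was -0.14 for Ldha, -0.16 for Eno3, -0.17 for Gapdh and -0.19 for Pgk1. Aldoa stood at -0.37, with an interval of -0.38 to -0.36. In all, 9 members were within 1.1-fold with TMM factors. In TPM the log2 ratio was 0.07 for Pgam2, 0.12 for Tpi1, 0.04 for Pkm, 0.02 for Ldha and 0.01 for Eno3. It was -0.01 for Gapdh, -0.02 for Pgk1 and -0.20 for Aldoa. The sign of such small ratios thus depends on the scale.

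**Figure D3:**
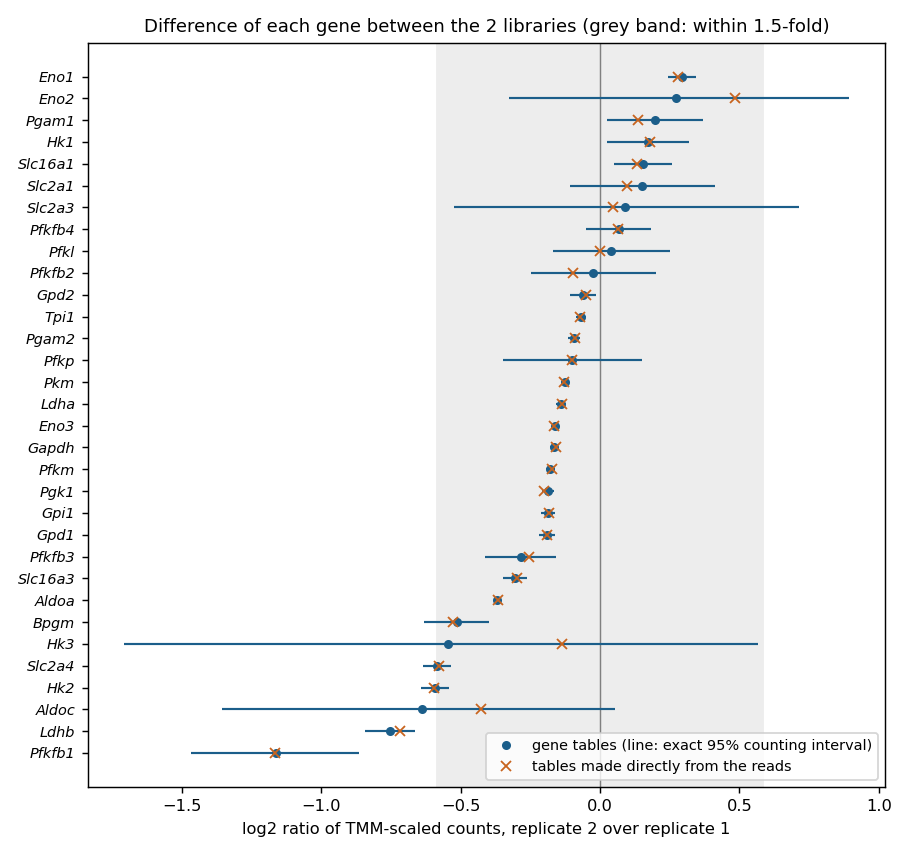
Log2 ratio of TMM-scaled counts, replicate 2 over replicate 1, for each member tested. A point and its 95% binomial interval stand for the gene tables and a cross for the direct quantification. The grey band holds ratios within 1.5-fold. Pfkfb1, Ldhb, Aldoc, Hk2 and Slc2a4 lie past the lower limit, from -1.16 to -0.59, and Eno1 is highest at 0.29.

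For many members the transcript that led depended on how reads were assigned. In the tables made from alignments the highest transcript was the same in both libraries for 29 of 32 members, the exceptions being Eno2, Slc2a3 and Pfkfb3. In the direct quantification this held for 25. For 10 members the leading transcripts of the 2 quantifications had none in common: Hk1, Hk3, Aldoa, Gapdh, Eno1, Eno2, Eno3, Pkm, Ldha and Pfkfb1. No such count of leading transcripts, here or below, was made over all genes. Whether the members differ from other genes in this was therefore not tested. The alignments gave 68.5% and 68.3% of Gapdh to Gapdh-208, a processed transcript of 483 bases, in replicates 1 and 2, where the direct quantification gave it 0 and led with Gapdh-207 at 38.4% in both. They also gave 21.2% and 20.9% of Hk2 to Hk2-202, a processed transcript of 594 bases that had 0 in the direct quantification. Direct over gene-table TPM was 2.85 and 2.92 for Gapdh, against a median of 1.34 and 1.33 over the 11959 genes at 1 TPM or more in both libraries. Of those genes, 0.828% and 0.820% had a ratio as high. The count of Gapdh as a whole differed too, at 82510 and 95122 in the gene tables and 147419 and 169724 in the direct quantification. Direct over gene-table count was 1.79 and 1.78 for Gapdh, against a median of 1.06 and 1.05 over those genes. The level and count of Gapdh thus depend on the quantification.

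Start sites could be read for some members, within the same limit. Aldoa has alternative starts, and its start at chr7 base 126800447 (minus strand) held 55.9% and 52.5% of the gene in the alignments and almost nothing in the direct quantification. The group of starts from base 126798993 to 126799254 held 31.7% and 34.6% in the alignments and 93.3% and 91.3% in the direct quantification. For Pfkm the first starts, at bases 98092589 to 98092644 of chromosome 15, held 73.4% and 72.0% in the alignments and 33.05% and 38.3% in the direct quantification. Pfkfb1 was the member that differed most between libraries with TMM factors. Its start at base 150589921 of chromosome X held 43.2% and 58.3% in the alignments, in replicates 1 and 2. The later starts at bases 150594478 to 150594610 held 44.0% and 24.5% there. In the direct quantification these were 19.8% and 23.7% for the first and 38.2% and 25.9% for the later starts, and the starts at bases 150588229 to 150588256 held 32.5% and 33.2%, against 4.59% and 8.65% in the alignments. For 17 of the 32 members the leading transcript was the same in both libraries and both quantifications. Among them, Slc2a4-201 held 93.2% and 93.7% of Slc2a4 in the alignments and 93.2% and 93.6% in the direct quantification, Gpd1-201 held over 99% of Gpd1, and Slc16a3-201 led Slc16a3 with 64.3% and 68.0% in the alignments and 81.1% and 83.3% in the direct quantification.

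**Figure D4:**
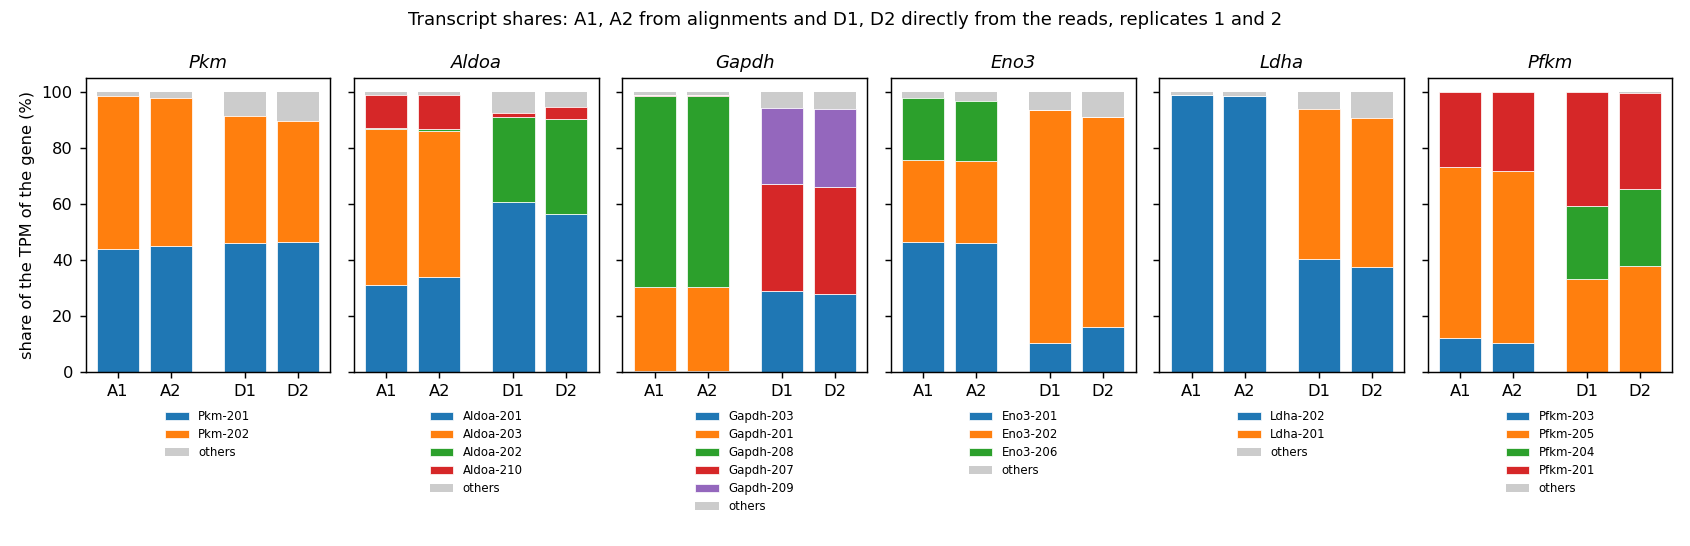
Share of each gene's TPM, in percent, assigned to its main transcripts in replicates 1 and 2, from alignments (A1, A2) and directly from the reads (D1, D2), for Pkm, Aldoa, Gapdh, Eno3, Ldha and Pfkm. The bars of the 2 libraries mostly resemble each other within a quantification and differ between quantifications. Gapdh-208 stands at 68.5% and 68.3% in A1 and A2 and at 0 in D1 and D2. For Pfkm the leading transcript is Pfkm-201 at 40.5% in D1 and Pfkm-205 at 38.0% in D2.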

How the data were processed

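Per library, the authors deposited tables per gene and per transcript that rest on transcriptome alignments. They give expected (estimated) counts, TPM, posterior mean TPM, credibility intervals and, for transcripts, the percent of the gene's TPM, per the file headers. Another deposited table per transcript was made directly from the reads and gives estimated counts and TPM. The build was mm10 with GENCODE M21, per the notes deposited with the files. The sources used here name no aligner or quantifier. The level of the deposited intervals is not stated. They belong to the posterior mean, and TPM values such as that of Aldoa lie outside them.

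From these, shares were computed from the TPM summed over a step. Direct transcript values were summed per gene. Library ratios used counts rounded to whole numbers, TMM factors (edgeR 4.0.16 in R 4.3.3), a prior count of 0.5 and a summed count of at least 20, leaving out ERCC and unannotated rows, with 95% Clopper-Pearson intervals. The 26249 rows that name neither a gene nor an ERCC RNA held 2 and 0 counts. DESeq2 1.42.0 gave alternative size factors. The ratios and intervals were tested on simulated counts with counting error only, for genes above a higher count limit than that used here. The simulation therefore cannot speak to other spread between libraries or to the lowest counts. Reads are not independent molecules, so intervals and limits at 0 cover counting error only. A member was said to share reads where the posterior SD exceeded 1% of its count. All 33 members, the further genes at 1 TPM and the marker sums were to be named, whatever their difference between libraries; a few listed genes are not reported here. The members, gene lists and marker lists were chosen with earlier results of these data known. Promoters are from RefSeq, and the Pkm exons from GENCODE transcripts.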

Additional observations from a re-analysis of the deposited data

How the results depend on the processing

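By the mean of both libraries the leading gene of each of the 11 steps was the same with each other quantification, unit or gene set. In replicate 1, with protein-coding transcripts only, Pfkfb4 held 32.2% and Pfkfb3 34.7% of phosphofructokinase-2. Shares moved by more than the spread between libraries as follows. With the direct quantification the share was 91.8% for Ldha, 77.9% for Gpd1, 99.9863% for Aldoa and 99.9974% for Pkm, and M1 held 49.1% of M1 plus M2. With posterior mean TPM it was 98.7% for Pfkm, 99.9773% for Aldoa and 99.9645% for Pkm. With counts not divided by length it was 98.7% for Pfkm, 98.4% for Pgam2, 84.6% for Slc16a3, 72.8% for Gpd1 and 99.9848% for Aldoa. With protein-coding transcripts only it was 85.7% for Gpd1 and 99.9893% for Aldoa. With all listed family members it was 92.5% for Eno3, 84.3% for Slc2a4, 73.1% for Gpd1 and 99.9864% for Aldoa.

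Members past 1.5-fold numbered 2 with total counts, 1 with ERCC totals and 3 with direct counts, against 5, where 15.5%, 18.3% and 13.6% of all genes were past it. All genes past it numbered 8623 of 24859 with no filter, beside 5 of 32 members, and 715 of 11117 with a summed count of at least 200, beside 4 of 28 members, against 2143 of 15734. With 1 library left out, the share ranged over 84.0% to 90.6% for Hk2, 98.9% to 99.1% for Pfkm, 99.2% to 99.4% for Pgam2, 94.0% to 95.6% for Eno3, 93.6% to 95.9% for Ldha, 94.9% to 97.0% for Slc2a4, 91.1% to 93.5% for Slc16a3, 36.9% to 46.4% for Pfkfb4, 74.4% to 76.2% for Gpd1 and 54.0% to 55.5% for M1. The cause of these shifts was not tested, beyond what each alternative changes by construction. No paired analysis was possible because there is 1 group only.

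Depth limits the low members: Hk3, Aldoc, Eno2 and Slc2a3 rest on 61 counts or fewer in each library, and every SD rests on 2 libraries.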
